A study of Mus musculus with 6 samples.

Results

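The *Peg3* domain of proximal mouse chromosome 7 was described through 4 of its genes, *Zim1*, *Peg3*, *Usp29* and *Zfp264*, out of 55401 genes in a table of RNA-seq counts from whole mouse embryos at E10.5, a mid-gestation stage. The study asked what an excess of the microRNA gene *Mir483* does to the embryo. *Zim1* was chosen by its count difference between the genotypes, since its p-value ranked 3 among 16784 genes tested, and the other members were listed as genes of the same domain. The values of the members in the comparison of genotypes are therefore given as a description, with no test. The series held 3 WT libraries and 3 libraries of *Mir483* 5C embryos, and all 6 entered each value below.

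WT embryos were wild-type littermates with an unmodified *Igf2* locus. In 5C embryos, 5 further copies of *Mir483* had been placed in tandem into the native *Igf2* locus, in which the gene lies. Per the study's methods, the animals were on a C57BL/6J background, RNA of 2 male embryos was pooled for each library, and the allele was made in embryonic stem cells and transmitted by chimeric males, so that the 5C libraries stand for 1 allele. The array sits at a locus that is itself imprinted, on the same chromosome as the *Peg3* domain but 136 Mb from it. Whole embryos were lysed, and in such bulk samples fewer cells of a type and less RNA per cell cannot be told apart.

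Imprinted genes are expressed mainly from the allele of 1 parent, and they lie in clusters whose parental bias is set by a differentially methylated region. In the *Peg3* domain that region covers the promoter shared by *Peg3* and *Usp29*, which is methylated on the maternal allele. *Peg3* encodes a zinc finger protein known for its roles in growth, maternal behaviour and apoptosis, *Usp29* encodes a ubiquitin-specific protease, and *Zfp264* is a zinc finger gene, all expressed from the paternal allele. *Zim1*, a Krüppel-type zinc finger gene, is expressed from the maternal allele. The counts did not separate alleles, so the label "imprinted" rests on background knowledge and was not measured.

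In the GENCODE annotation of GRCm38, the members fill 320 kb of chromosome 7. *Zim1* (ENSMUSG00000002266, protein-coding) lies at chr7:6671269-6696450 on the minus strand. *Peg3* (ENSMUSG00000002265, protein-coding) follows at chr7:6703892-6730431, also on the minus strand, with 7441 bases between them. *Usp29* (ENSMUSG00000051527, protein-coding) starts 146 bases beyond the start of *Peg3* and runs the other way, at chr7:6730578-6967219 on the plus strand. *Zfp264* (ENSMUSG00000109176), annotated as a transcribed unprocessed pseudogene, lies at chr7:6977246-6991087 on the plus strand. The exons of *Zim1* and *Peg3* overlap no other annotated gene. Of the exon bases of *Usp29*, 14.3% lie under the antisense gene *Zim3*, and 6.18% of those of *Zfp264* do. The libraries were stranded, but which strand setting was used for counting was not given in the sources used here.

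The promoters show the layout of the domain. RefSeq windows of GRCm38.p6, from 250 bases before to 50 bases after the start, were found for 3 of the 4 members. The *Zim1* window (chr7:6696383-6696682, minus strand) and the *Peg3* window (chr7:6730370-6730669, minus strand) are shown 5′ to 3′ with each CpG, the dinucleotide that carries DNA methylation, in capitals:
Zim1 promoter: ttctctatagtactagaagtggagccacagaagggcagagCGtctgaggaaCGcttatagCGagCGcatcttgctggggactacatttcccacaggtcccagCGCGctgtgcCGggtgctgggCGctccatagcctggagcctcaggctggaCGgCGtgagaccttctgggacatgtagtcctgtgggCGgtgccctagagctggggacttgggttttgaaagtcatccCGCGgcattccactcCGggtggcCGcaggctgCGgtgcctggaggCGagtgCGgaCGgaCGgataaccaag
Peg3 promoter: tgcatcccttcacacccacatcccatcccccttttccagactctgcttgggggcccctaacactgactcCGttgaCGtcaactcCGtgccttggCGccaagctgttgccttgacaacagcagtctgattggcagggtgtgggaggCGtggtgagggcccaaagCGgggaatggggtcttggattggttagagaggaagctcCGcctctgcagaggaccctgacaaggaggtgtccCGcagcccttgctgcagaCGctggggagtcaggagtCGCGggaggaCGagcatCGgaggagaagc

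The *Zim1* window holds 20 CpG and the *Peg3* window 13. The window of *Usp29* (chr7:6730333-6730632, plus strand) holds 17 CpG and covers 263 of the same 300 bases as that of *Peg3*, read from the opposite strand, so *Peg3* and *Usp29* are transcribed away from each other out of nearly the same sequence. The median over 32851 promoter windows was 7 CpG. Methylation was not measured here.

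The mature products of *Mir483* are shown because their seeds, bases 2 to 8 in capitals, define the matches searched for in the members. Both are encoded on the minus strand, miR-483-3p at chr7:142654932-142654952 and miR-483-5p at chr7:142654968-142654989 (RefSeq, GRCm38.p6):
mmu-miR-483-3p: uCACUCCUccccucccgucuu
mmu-miR-483-5p: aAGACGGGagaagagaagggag

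A match was the 7-base complement of a seed on the sense strand of a transcript, AGGAGTG for miR-483-3p and CCCGTCT for miR-483-5p. No protein-coding transcript of *Zim1*, *Peg3* or *Usp29* held either match in its annotated 3′ UTR, where 9.61% of 20602 coding genes held the first and 2.45% held the second. The match to miR-483-3p did occur in coding sequence. *Zim1* held 2, at coding bases 7 to 13, close to the start codon, and at 983 to 989. *Peg3* held 1, at 1165 to 1171. Bases are counted from 1 at the A of the start codon. *Usp29* held none. The matches are shown in capitals within 30 bases of transcript:
Zim1, coding bases 7 to 13: atgaagAGGAGTGtctcagaggtgaagact
Zim1, coding bases 983 to 989: ctacaagtgtaAGGAGTGtggcaaagcctt
Peg3, coding bases 1165 to 1171: aaaccttcagtAGGAGTGctgccctggcag

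The *Peg3* match also lies in the 3′ UTR of 1 of its transcripts annotated for nonsense-mediated decay, and each of the 2 transcripts of *Zfp264*, which have no annotated coding sequence, held 1 match. At least 1 coding match to miR-483-3p was present in 14.4% of 21901 coding genes and in 38.8% of 394 coding genes named *Zfp*, which encode zinc finger proteins. At least 2 were present in 2.23% and 15.2%, respectively. A match describes the letters of a transcript and no binding was measured.

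Library totals ranged from 6357343 to 19151368 counts, so that 3 counts, taken as the floor, stood for 0.157 to 0.479 CPM (counts scaled to a common library total after TMM correction, which sets typical genes level between libraries). Floors cover counting error only. *Mir483* checked the labels: its annotated hairpin held 11, 5 and 2 counts in WT and 85, 51 and 36 in 5C. WT replicate 1 stood apart on the first principal component, and its summed CPM of 6 yolk sac endoderm markers was 5801, against 115 to 1101 in the other 5 libraries. Replicate 2 of both genotypes was low in 4 Y-linked transcripts, although the methods describe male embryos. These summed to 4.12 CPM in WT and 0.0854 in 5C, against 130 to 212 in the other libraries. *Xist*, a marker of the inactive X chromosome, was present in all 6 libraries and not in replicate 2 alone. It measured 535, 849 and 692 CPM in WT and 495, 914 and 640 in 5C. The sex of the pooled embryos was not tested. In the comparison of all genes with edgeR's quasi-likelihood test, 0 of 16784 genes (0.0%) met the call rule of the study, which asks for a fold change over 1.5 at an adjusted p under 0.05. The study itself reported genes that met its rule in 5C embryos, most of them lower, and the reason for the difference was not tested. An unadjusted p under 0.05 was found for 1011 genes (6.02%), of which 583 (3.47%) were lower and 428 (2.55%) higher in 5C. Scaled by library size alone, 445 of 1050 such genes were lower. DESeq2 called 11 genes by the same rule.

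*Zim1*, the maternally expressed member, was lower in 5C embryos than in WT embryos. Its counts were 1312, 692 and 470 in WT replicates 1 to 3 and 658, 535 and 559 in the 5C replicates. Scaled to library size, the WT levels were 68.8, 59.4 and 75.0 CPM, while the 5C levels were 39.9, 45.7 and 39.8 CPM. Every 5C library lay below every WT library. WT embryos averaged 67.7 ± 7.84 CPM and 5C embryos 41.8 ± 3.37 CPM (SD, n = 3 each). This gave a log2 fold change of -0.69 (SE 0.10), or 1.62-fold more in WT.

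*Peg3*, the paternally expressed zinc finger gene that gives the domain its name, was the most abundant member per length in every library. It held 33150, 18277 and 11393 counts in WT and 22902, 18132 and 22154 in 5C, or 1739, 1569 and 1818 CPM against 1388, 1548 and 1577 CPM. The genotypes overlapped, since WT replicate 2 lay below 5C replicate 3. WT embryos averaged 1709 ± 127 CPM and 5C embryos 1504 ± 102 CPM (SD, n = 3 each). The log2 fold change of -0.18 (SE 0.08) is given as a description, like that of *Zim1*.

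*Usp29*, the protease gene that shares the *Peg3* promoter, lay slightly the other way. It held 852, 463 and 300 counts in WT and 768, 590 and 718 in 5C. WT levels were 44.7, 39.8 and 47.9 CPM, and 5C levels were 46.5, 50.4 and 51.1 CPM. WT replicate 3 lay above 5C replicate 1, so the genotypes overlapped. On average WT embryos held 44.1 ± 4.09 CPM and 5C embryos 49.3 ± 2.45 CPM (SD, n = 3 each). This corresponds to a log2 fold change of 0.17 (SE 0.09).

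*Zfp264* was at or near 0 throughout. It had 2 counts in WT replicate 1 and 0 counts in the other 5 libraries, all under the floor, and it did not pass the count filter, so no fold is given. Of the 3 members that passed, 0 met the call rule in edgeR's quasi-likelihood test as reported. *Zim1* met it with DESeq2, with robust moderation and without a count filter. All genes called numbered 0 as reported, 11 with DESeq2, 3 with robust moderation and 319 without a count filter. *Zim1* alone did not overlap between the genotypes, where 1907 of all genes tested (11.4%) did not overlap. Because these members were chosen on this contrast, nothing is read from these counts.

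**Figure D1:**
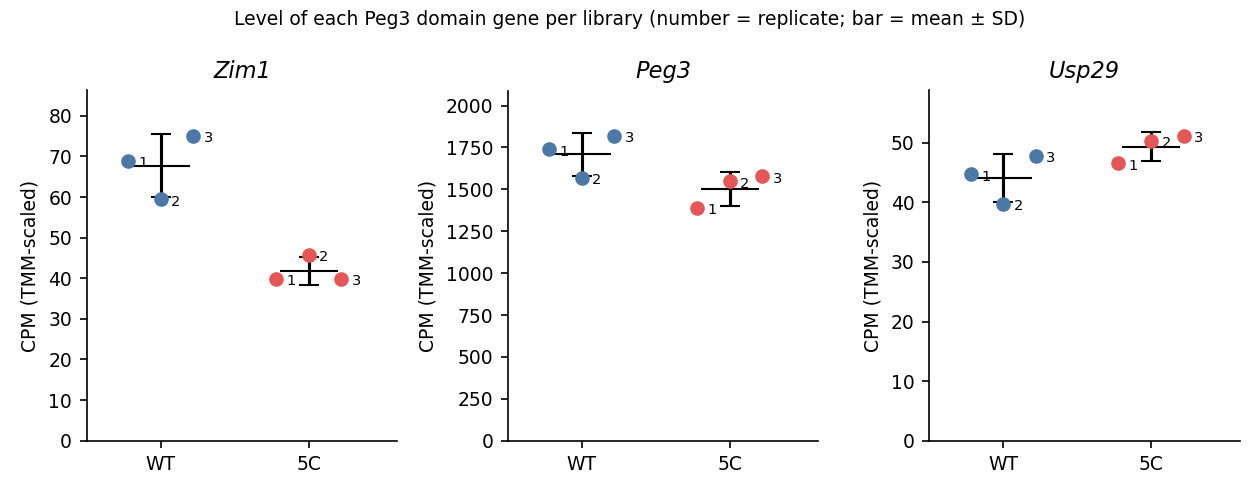
TMM-scaled CPM (vertical axis, from 0) of *Zim1*, *Peg3* and *Usp29* in 3 WT (blue) and 3 5C (red) libraries, each point a library numbered by replicate, with the mean and SD as bars. For *Zim1* the WT points sit between 59.4 and 75.0 CPM and the 5C points between 39.8 and 45.7 CPM, while the points of *Peg3* and of *Usp29* overlap between genotypes.

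Levels were also set side by side per kilobase of annotated exon, which allows a comparison between genes. *Peg3* measured 128 ± 9.53 CPM per kb in WT and 113 ± 7.65 in 5C (SD, n = 3 each). *Zim1* measured 8.38 ± 0.970 CPM per kb in WT and 5.17 ± 0.417 in 5C. *Usp29* measured 2.44 ± 0.226 and 2.73 ± 0.136 CPM per kb. The order *Peg3*, *Zim1*, *Usp29* was the same in all 6 libraries, and the ranges of the members did not meet: *Zim1* was at least 4.92 CPM per kb and *Usp29* at most 2.83. Exon lengths were summed over all annotated transcripts (8.09 kb for *Zim1*, 13.3 kb for *Peg3* and 18.1 kb for *Usp29*), so the levels depend on that annotation.

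In each of the 3 measured genes WT replicate 2 was the lowest and WT replicate 3 the highest WT library. This order is not particular to the domain, since *Igf2r*, on another chromosome, had it too. In 5C embryos the orders differed: 5C replicate 2 was the highest for *Zim1*, and 5C replicate 1 the lowest for *Peg3* and *Usp29*. Within genotypes the coefficient of variation of CPM lay between 4.97% (*Usp29* in 5C) and 11.6% (*Zim1* in WT).

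Ratios of raw counts within a library do not depend on how libraries are scaled. *Zim1* counts were 3.96%, 3.79% and 4.13% of *Peg3* counts in the WT replicates and 2.87%, 2.95% and 2.52% in the 5C replicates. No 5C library reached a WT library, and the means were 3.96% ± 0.170 and 2.78% ± 0.228 (SD, n = 3 each), a ratio of 0.703 between 5C and WT. This set the maternally expressed gene against its paternally expressed neighbour in the same RNA.

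In raw counts *Zim1* and *Usp29* changed places, while per kilobase of exon *Zim1* stayed above the longer *Usp29* in every library. In WT, *Zim1* had 1.54, 1.49 and 1.57 counts for each *Usp29* count, and in 5C it had 0.857, 0.907 and 0.779. *Zim1* thus gave more counts than *Usp29* in every WT library and fewer in every 5C library, with means of 1.53 ± 0.0364 and 0.847 ± 0.0646 (SD, n = 3 each), or 0.552 times as high in 5C.

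*Usp29* was also set against *Peg3*, with which it shares a promoter region. *Usp29* counts were 2.57%, 2.53% and 2.63% of *Peg3* counts in WT and 3.35%, 3.25% and 3.24% in 5C. Although each gene overlapped between the genotypes on the CPM scale, the ratio did not. It was 2.58% ± 0.0505 in WT and 3.28% ± 0.0615 in 5C (SD, n = 3 each), 1.27 times as high in 5C. *Usp29* rested on 300 to 852 counts and each SD on 3 libraries, so the SD may understate the error of this ratio. The 3 ratios come from the same 3 genes and are not independent of each other. How many other gene pairs have ratios that lie apart between the genotypes was not computed. *Zim1* was chosen on this contrast, and the *Usp29* to *Peg3* ratio was added after seeing the data. Nothing is therefore read from the lack of overlap in these ratios.

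**Figure D2:**
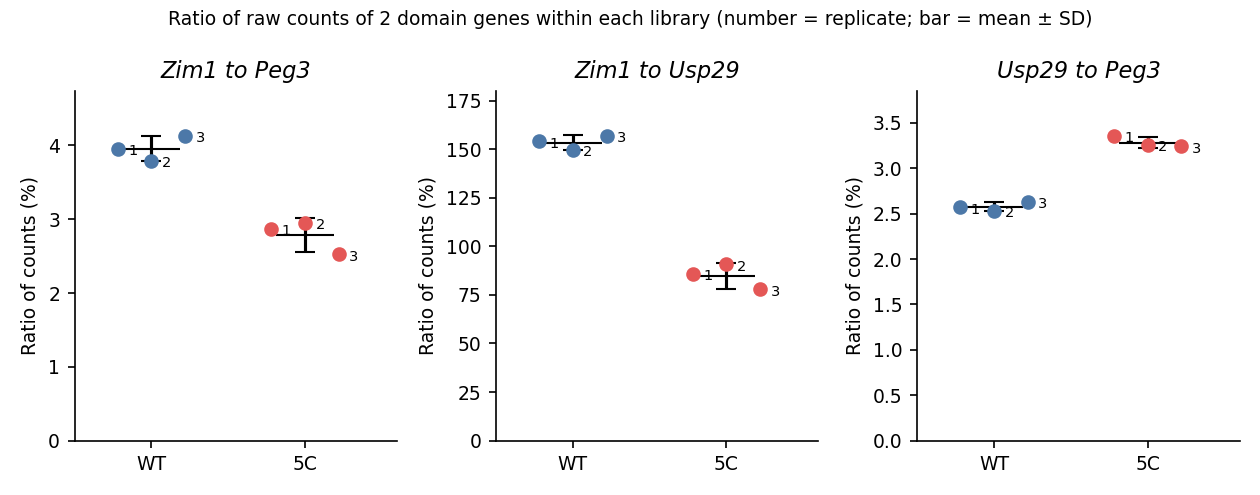
Ratio of raw counts of 2 genes within each library, as a percentage on a vertical axis from 0, for *Zim1* to *Peg3*, *Zim1* to *Usp29* and *Usp29* to *Peg3*. Points are 3 WT (blue) and 3 5C (red) libraries numbered by replicate, and bars are the mean and SD. In each panel the genotypes sit apart, with 5C lower in the first and second panels (means 3.96% and 2.78%, 153% and 84.7%) and higher in the last (2.58% and 3.28%).

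Markers of tissues moved with single libraries, and some moved with genotype. The summed CPM of 3 heart markers, all detected above 1 CPM in every library, lay between 137 and 213 in WT and between 115 and 129 in 5C. Most of that gap was in *Myh6*, an atrial myosin chain of the embryonic heart, with WT libraries at 61.1, 86.5 and 72.3 CPM and 5C libraries at 48.9, 39.2 and 33.1 CPM. Summed myotome markers (3 genes) lay at 62.7 to 67.8 CPM in WT and 61.5 to 68.0 in 5C, blood markers (3 genes) at 6038 to 8857 and 5558 to 11109, and neural markers (4 genes) at 371 to 411 and 389 to 438. Within the neural list, *Sox2*, a neural progenitor factor, did not overlap, at 74.2, 84.9 and 75.1 CPM in WT and 89.4, 92.6 and 95.9 in 5C, nor did *Pax6*, a factor of the neural tube and eye, at 47.8, 51.9 and 48.0 against 55.3, 53.1 and 56.2. Limb bud markers (4 genes) lay at 255 to 681 and 254 to 282, the highest through *Tbx4*, a hindlimb factor, at 399 CPM in WT replicate 3 against 5.48 to 9.39 in the others, while *Tfap2b* of the same list lay at 34.6, 29.8 and 34.3 CPM in WT and 36.1, 39.6 and 36.4 in 5C. Decidua markers (4 genes) were at 7.73 to 45.8 and 10.4 to 41.7 CPM, and trophoblast markers (6 genes, with *Synb* at 0 in every library) at 2.39 to 5.84 and 1.28 to 7.97. Apart from *Myh6*, *Sox2*, *Pax6* and *Tfap2b*, the genes of the heart, neural and limb bud lists overlapped between the genotypes. Of all genes tested, 11.4% did not overlap. The part of these tissues in the *Zim1* difference was not tested.

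*Zim1* was lower in 5C also without each of the libraries that stood apart. Its log2 fold change was -0.68 without WT replicate 1, the library rich in yolk sac markers, -0.63 without WT replicate 3, and -0.85 without replicate 2 of both genotypes. *Peg3* stood at -0.17, -0.14 and -0.26 in those fits, and *Usp29* at 0.18, 0.21 and 0.08. Over all 17 alternative fits, *Zim1* lay between -0.85 and -0.63, *Peg3* between -0.26 and -0.13 and *Usp29* between 0.08 and 0.21. None of the 3 changed its direction. For *Zim1*, whose genotypes did not overlap, leaving libraries out could hardly change the direction and shows only how far the size moved.

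**Figure D3:**
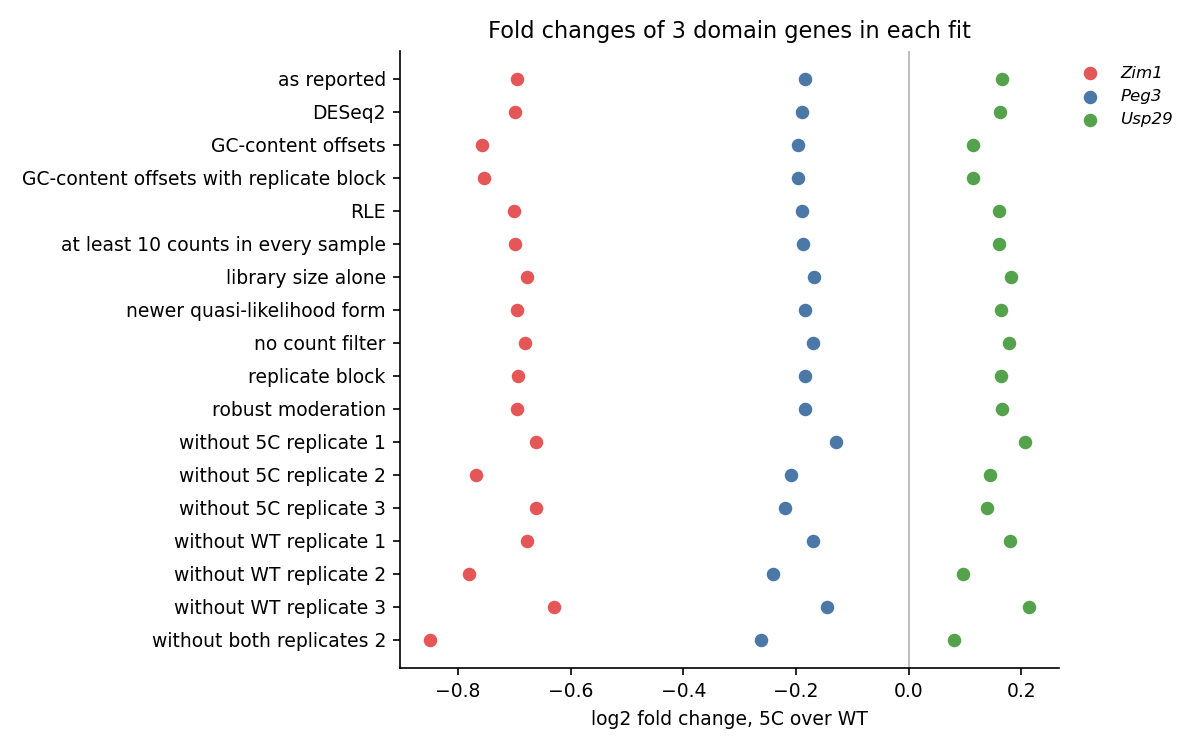
Log2 fold change of 5C over WT (horizontal axis) of *Zim1* (red), *Peg3* (blue) and *Usp29* (green) in the fit as reported and in 17 others, 1 row each. The genes form 3 separate columns of points, with *Zim1* from -0.85 to -0.63, *Peg3* from -0.26 to -0.13 and *Usp29* from 0.08 to 0.21.

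Within 500 kb of the members, 61 other genes are annotated, of which 15 passed the count filter, 23 had 0 counts in all libraries and the rest were too low to fit. The 15 genes had a median log2 fold change of -0.00, with 8 lower and 7 higher, beside a median of -0.00 over all genes tested. In edgeR's test 0 of 15 had an unadjusted p under 0.05, where 6.02% of all genes did. The same count of 0 held in each of the 17 alternative fits. In each of the 15 the genotypes overlapped, where 11.4% of all genes tested did not overlap. *Zim2*, on the side of *Zim1*, and the antisense gene *Zim3*, which lies over parts of *Usp29* and *Zfp264*, are known as maternally expressed. They held 1 and 2 counts over all 6 libraries, so their levels were not detectable at this depth.

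Most fitted neighbours are zinc finger genes at low levels. On the side of *Zim1* these were *Zfp28* (-0.04 on the log2 scale, SE 0.11), *Zfp78* (-0.20, SE 0.24), *Zfp583* (0.22, SE 0.15), *Zfp667* (0.08, SE 0.12) and *Zfp444* (0.05, SE 0.08). On the side of *Zfp264* they were *Zfp954* (-0.00, SE 0.13), *Zfp773* (0.03, SE 0.16), *Zfp418* (0.07, SE 0.16) and *Zfp772* (0.15, SE 0.13). *Clcn4*, a chloride channel gene and the most distant on that side, measured 81.8, 81.8 and 73.7 CPM in WT and 93.2, 85.6 and 79.2 in 5C (0.12, SE 0.08). The log2 fold changes of the unnamed models were -0.38 for *Gm44862* (SE 0.30), -0.09 for *Gm44863* (SE 0.23), -0.58 for *Gm18190* (SE 0.50), -0.16 for *Gm45148* (SE 0.29) and -0.07 for *Gm3854* (SE 0.17). *Gm44862* and *Gm44863* lie in an intron of *Usp29* on its strand.

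**Figure D4:**
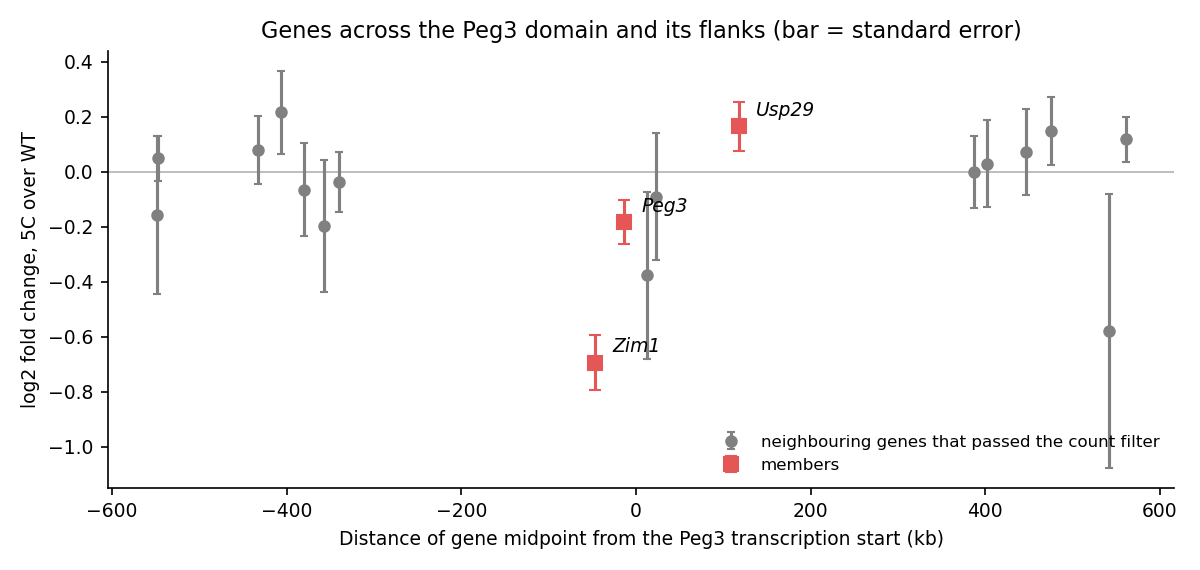
Log2 fold change of 5C over WT (vertical axis, bars are standard errors) against the distance of each gene's midpoint from the *Peg3* start in kb, for 3 members (red squares) and 15 fitted neighbours (grey circles). *Zim1* at -0.69 is the lowest point and the neighbours with small errors lie near 0, with *Gm18190* at -0.58 carrying an error of 0.50.

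Other imprinted genes were compared by the parental allele that expresses them. Of 27 listed paternally expressed genes, 25 were fitted, with a median log2 fold change of -0.04 and 17 lower, and 3 (12%) had an unadjusted p under 0.05, where 6.02% of all genes did. The count was 0 without 5C replicate 2, 1 without 5C replicate 1 or WT replicate 3, and 5 without WT replicate 2. *Peg10*, a retrotransposon-derived gene, measured 478, 270 and 436 CPM in WT and 272, 271 and 296 in 5C (-0.50, SE 0.17), with overlap. *Nap1l5*, of the nucleosome assembly protein family, measured 3.62, 3.26 and 3.35 CPM in WT and 5.27, 5.46 and 4.13 in 5C (0.53, SE 0.19), and *Snrpn*, a splicing factor, 24.8, 23.3 and 22.5 against 25.3, 29.0 and 30.4 (0.26, SE 0.10). In both, the genotypes did not overlap, with 5C higher. These were 2 of the 25 fitted (8%), where 11.4% of all genes tested did not overlap.

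Of 22 listed maternally expressed genes, the class that holds *Zim1*, 20 were fitted, with a median of -0.09 and 13 lower, and 5 (25%) had an unadjusted p under 0.05, beside the same 6.02%. The count was 1 without WT replicate 1, 5C replicate 1 or 5C replicate 2. *Igf2r*, the receptor that clears IGF2, measured 473, 436 and 544 CPM in WT and 426, 373 and 379 in 5C (-0.30, SE 0.09), without overlap. *H19*, the non-coding RNA beside *Igf2*, measured 5049, 4383 and 4262 CPM against 3365, 3434 and 4521 (-0.27, SE 0.12), with 5C replicate 3 inside the WT range. *Mirg*, a microRNA host transcript, stood at -0.17 (SE 0.07). The other two, named after their values were seen, were higher in 5C: *Copg2*, a coatomer subunit gene, at 0.15 (SE 0.06) and *Kcnk9*, a potassium channel gene near the floor, at 0.67 (SE 0.29). The genotypes did not overlap in 5 of the 20 fitted (25%), beside 11.4% of all genes tested. In this class too, the directions were mixed.

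No gene of these lists passed adjustment over all genes tested with edgeR's quasi-likelihood test, the smallest adjusted p being 0.781. The lowest value of the maternal list, *Phlda2* at -2.02 (SE 0.96), was also named after its value was seen, and rested on 13.5 CPM in WT replicate 1 against 0.364 to 2.78 in the other 5 libraries. Genes of the imprint maintenance list, which also holds DNA methyltransferases that set new marks and the *Tet* genes, spanned a narrower range. Of 15 listed, 14 were fitted, with a median of -0.04 and a range from -0.22 to 0.11, and 0 had an unadjusted p under 0.05 in edgeR (1 in DESeq2). The 3 with the smallest p were *Uhrf1* (-0.22, SE 0.11), *Tet3* (-0.18, SE 0.10) and *Trim28* (-0.14, SE 0.08). *Uhrf1* recruits the maintenance methyltransferase and *Tet3* oxidises methylated cytosine. *Trim28* encodes the corepressor of those zinc finger proteins that carry a KRAB (Krüppel-associated box) domain.

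**Figure D5:**
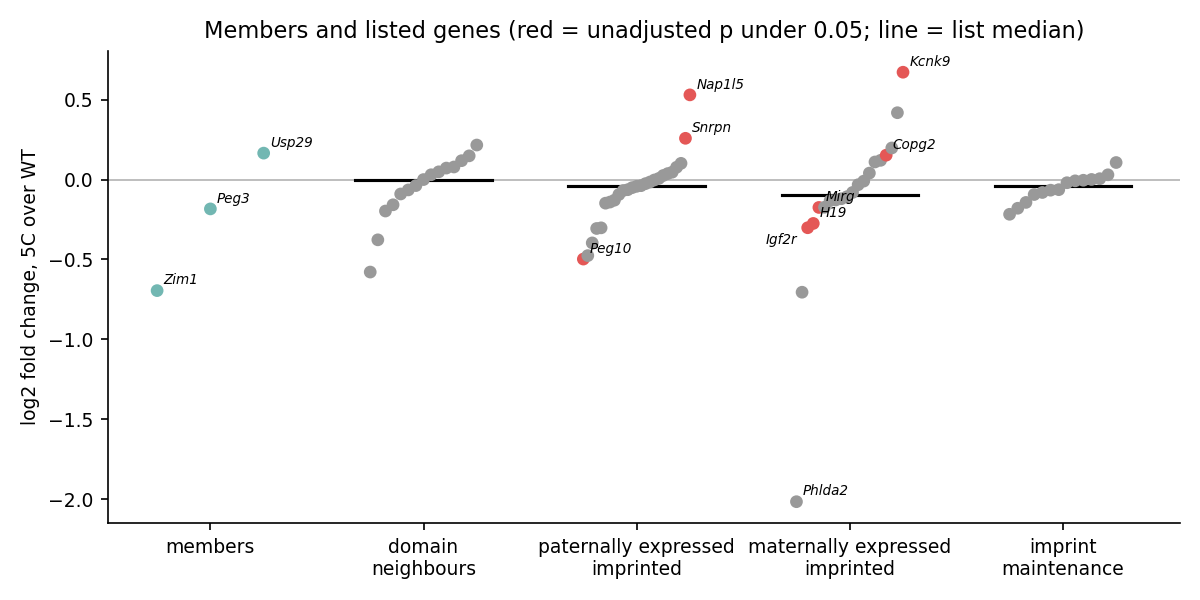
Log2 fold change of 5C over WT (vertical axis) of 3 members (teal) and of the fitted genes of 4 lists, sorted within each list, with red marking an unadjusted p under 0.05 and a black line the list median. *Zim1* at -0.69 lies below all fitted paternally expressed genes, the lowest of which is *Peg10* at -0.50, while in the maternal list *Phlda2* reaches -2.02.

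Genes tied to the protein products differed by at most 0.20 on the log2 scale. Of 4 partners of PEG3 in apoptosis, the 3 with the smallest p were named: *Traf2* stood at a log2 fold change of -0.20 (SE 0.12), *Siah1a* at 0.13 (SE 0.08) and *Bax* at -0.08 (SE 0.10). *Usp37*, a relative of *Usp29*, stood at 0.07 (SE 0.06), and *Usp26* was too low to fit.

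The genes whose profile over the 6 libraries was most like that of each member were ranked by the root mean square distance of log2 CPM after centring. The 5 closest to *Zim1* were *9430068D22Rik*, *Rps6kl1*, *Tcf7l1*, *Igf2os* and *Sptbn5*, at distances of 0.108 to 0.124, where the profile of *Zim1* itself had a root mean square of 0.365. *Igf2os*, an antisense transcript of the *Igf2* locus that carries the array, measured 38.8, 29.5 and 34.6 CPM in WT and 23.3, 23.3 and 22.6 in 5C, and *Tcf7l1*, a transcription factor of Wnt signalling, 8.50, 6.44 and 9.57 against 5.39, 4.95 and 5.05. The remaining 3 were below 3 CPM.

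By likeness to *Zim1*, *Peg3* stood at rank 659 and *Usp29* at rank 11366 among the genes tested. Closest to *Peg3* were *Chst12*, *Foxj3*, *Gm38021*, *Gpatch1* and *Zfp560* (distances 0.0347 to 0.0382, own root mean square 0.125). Closest to *Usp29* were *Sppl2a*, *Zfp955a*, *L3mbtl3*, *Senp8* and *Gm42994* (0.0269 to 0.0361, own root mean square 0.121). No member was among the 5 genes closest to another member. The profiles were not scaled, and *Zim1* was chosen for its difference between the genotypes. Its distance from the other members follows largely from that choice, so nothing is read from it.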

How the data were processed

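Whole E10.5 embryos of 2 genotypes were profiled, with 3 libraries each. Genotype and replicate number came from the sample titles. Per the study's methods, the authors sequenced poly(A)-selected stranded libraries as single-end reads and used STAR, with the GRCm38 build and Ensembl genes, for alignment and counting. The deposited values are raw counts per gene, neither normalized nor filtered.

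From these counts, edgeR 4.0.16 in R 4.3.3 was run on all genes kept by filterByExpr, with TMM scaling and the legacy form of its quasi-likelihood F-test (two-sided, Benjamini-Hochberg adjustment). Standard errors were log2 fold changes over the square root of F, and CPM used TMM-scaled totals. Of 55401 gene identifiers, 55141 were found in the GENCODE annotation. No 2 libraries agreed within sampling noise (chi-square per gene at least 5.77 over 15 pairs). The labels call the libraries biological replicates.

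The members and gene lists were chosen with earlier results of these data known. Named genes were the members, *Mir483*, all fitted neighbours, at most 3 genes with the smallest p of each other list, the 5 closest profiles of each member, and markers that moved with a library. *Copg2*, *Kcnk9*, *Phlda2*, *Usp26*, *Xist*, *Zim2* and *Zim3*, and the markers that moved with genotype, were named outside that rule after their values were seen. The alternatives changed the scaling, the count filter and the test (DESeq2 1.42.0), added GC-content offsets or the replicate number as a block, or left libraries out. The *Zim1* to *Usp29* and *Usp29* to *Peg3* ratios were added after seeing the data.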

Additional observations from a re-analysis of the deposited data

How the results depend on the processing

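The direction of *Zim1*, *Peg3* and *Usp29* held in all 17 alternative fits, and *Zfp264* was fitted only where no count filter was applied. That of *Zim1* could hardly change by leaving libraries out, since its genotypes did not overlap. Leaving out libraries gave log2 fold changes from -0.85 to -0.63 for *Zim1*, from -0.26 to -0.13 for *Peg3* and from 0.08 to 0.21 for *Usp29*, and log2 differences from -0.59 to -0.44 for the *Zim1* to *Peg3* ratio and from -0.93 to -0.80 for the *Zim1* to *Usp29* ratio. The lowest value of *Zim1*, -0.85, came without replicate 2 of both genotypes. *Zim1* was the 1 member called with DESeq2, without a count filter and with robust moderation, where all genes called numbered 11, 319 and 3, and 0 members were called with a library left out, where 0 or 1 of all genes was (1 each without 5C replicate 2 and without 5C replicate 3). Without a count filter 33139 genes were tested and 2170 had an unadjusted p under 0.05, against 456 (without 5C replicate 2) to 1803 (without WT replicate 2) with libraries left out. The paternally expressed list held 3 genes at that p as reported, 5 with GC-content offsets, 7 without a count filter and 0 to 5 with libraries left out. The maternally expressed list held 5 as reported, 3 with DESeq2, 3 with GC-content offsets and 1 to 7 with libraries left out. The imprint maintenance list held 0 as reported, 1 with DESeq2, 2 without a count filter and 0 to 3 with libraries left out. The cause of these shifts was not tested.

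Same-numbered libraries did not deviate together in every pair (correlations from -0.174 to 0.202, the highest for replicate 2, whose libraries were both low in Y-linked transcripts), so the numbers were not taken to pair the samples. With the replicate block, 0 genes were called, 782 had an unadjusted p under 0.05, the maternally expressed list held 2 such genes, and *Zim1* stood at -0.69. GC-content offsets with the replicate block gave 544 genes and 2 of the maternally expressed list. Levels under 3 counts in a library, as for *Zfp264*, could not be compared at this depth.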

Other observations

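Coding sequences with matches to the miR-483-3p seed were counted after those of *Zim1* had been seen, and the counts are given as values. Of 13972 coding genes tested with edgeR's quasi-likelihood test, 3.56% were lower in 5C at an unadjusted p under 0.05. The share was 9.51% of the 410 with at least 2 coding matches, which include *Zim1*, and 3.12% of the 11556 with none. In the same order, 2.73%, 2.44% and 2.85% were higher in 5C at that p. The genes with at least 2 matches had a median log2 fold change of -0.03 and a median coding length of 3093 bases, against 1425 bases over all coding genes tested. Among genes named *Zfp*, 1.69% of the 59 with at least 2 coding matches were lower at that p (median 0.04). Of the 208 with none, 1.44% were lower (median 0.07). The shares higher in 5C were 1.69% and 8.65%, respectively. All 350 tested genes named *Zfp* had a median of 0.07, with 22 higher (6.29%) and 4 lower (1.14%), and 1 of them was at or below the log2 fold change of *Zim1*. The part of coding length and GC content in these shares was not tested.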
